A study of Mus musculus with 8 samples.

Results

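Insulin-like growth factor (IGF) receptors and binding proteins are described here by the mRNA levels of 10 genes in chondrocytes of murine articular cartilage, cultured with or without IL-1β. The 10 genes were chosen by symbol, and all 10 were present among the 54658 gene symbols of the count table. They and the lists of related genes further on were chosen with earlier results of these data known. They are *Igf1*, the receptors *Igf1r* and *Igf2r*, the adaptor *Irs1*, and the binding proteins *Igfbp2*, *Igfbp3*, *Igfbp4*, *Igfbp5*, *Igfbp6* and *Igfbp7*. RNA-Seq covered 4 IL-1β samples and 4 vehicle samples. The cells were digested from the femoral head cartilage of wild-type mice, aged 3 weeks, and cultured as a monolayer in high-glucose medium, for which the labels list 10% fetal bovine serum. The methods give a lower share of serum for murine chondrocytes, stated there for culture after inhibitor transfection. IL-1β was applied at 1 ng/mL for 24 h, and the vehicle samples differed from these by the absence of the cytokine alone, as far as the labels say. Neither the labels nor the methods state whether the 4 samples of a group came from separate mice or cultures, so the p-values measure the spread between these samples, which may be technical.

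IGF-I and IGF-II are secreted peptides that signal through the type 1 receptor, a tyrosine kinase that phosphorylates insulin receptor substrates and thereby recruits PI3-kinase and AKT. The type 2 receptor, which is also the cation-independent mannose-6-phosphate receptor, takes up IGF-II for degradation in lysosomes. The binding proteins (IGFBPs) hold IGFs in the extracellular space, and proteases that cut them release the ligand. In articular cartilage the IGF system is known as an anabolic signal that favors synthesis of proteoglycan and type II collagen.

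The 8 samples held 10992355 to 17456063 counts each, and TMM factors lay between 0.984 and 1.01. A level of 3 counts, taken as the smallest that could be shown, corresponded to 0.172 to 0.273 CPM (counts scaled to a common library size), for counting error only. The 9 chondrocyte markers examined were all detected in both groups. Their summed level was 15610 to 16150 CPM in vehicle and 5671 to 6157 CPM under IL-1β, with 8 markers lower and *Prg4*, which encodes lubricin, higher. Of 7 leukocyte markers, 2 passed the filter on low counts, *Cd68* (higher) and *Lyz2* (lower), and the list summed to 15.9 to 19.1 CPM under IL-1β and 11.6 to 12.8 CPM in vehicle. *Ptprc*, which defines leukocytes, was at no more than 0.43 CPM in any sample. None of 5 endothelial or 4 skeletal muscle markers passed the filter, and each of these lists summed to at most 1.39 CPM in any sample. Of 6 fibroblast markers, 4 were tested, with *Pdpn* and *Pdgfra* higher, *Col3a1* lower and *Col1a1* below the threshold, and their list summed to 186 to 204 CPM under IL-1β and 170 to 177 CPM in vehicle. All 4 osteoblast markers were lower, with sums of 50.2 to 58.4 CPM against 126 to 135 CPM, and so was 1 of 3 adipocyte markers, *Lpl* (list sums of 7.63 to 9.96 against 20.4 to 26.9 CPM). In such bulk samples, fewer cells of a type and less RNA per cell cannot be told apart, and the part of these shifts in the results that follow was not tested.

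Of the 10 genes, 8 could be tested, and 6 of these passed at an adjusted p-value under 0.05 when IL-1β was compared with vehicle. *Igfbp7* and *Igf1r* were higher, and *Igfbp6*, *Irs1*, *Igfbp5* and *Igfbp4* were lower. *Igfbp7* rose to 1.62 times its vehicle level and was the gene of the 10 with the largest log2 fold change that passed. Among all 14404 genes tested by edgeR's quasi-likelihood test, 40.2% passed the same threshold, 20.4% higher and 19.8% lower. Of the remaining 4 genes, *Igf2r* and *Igfbp3* did not pass the test, and *Igf1* and *Igfbp2* were too low to be tested (a CPM above 1 in at least 4 samples was required). *Igfbp3* met that requirement mainly through its IL-1β samples, so its place among the tested genes was not independent of the comparison. None of the 8 tested genes had a log2 fold change beyond 1 in either direction, at an adjusted or an unadjusted p-value, in edgeR or in DESeq2, whereas 5.21% of all genes tested were past that size with an adjusted p-value under 0.05. The median log2 fold change was -0.08 over the 8 genes tested and -0.0012 over all genes tested, and the median size of a change, without its sign, was 0.16 over all genes.

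**Figure D1:**
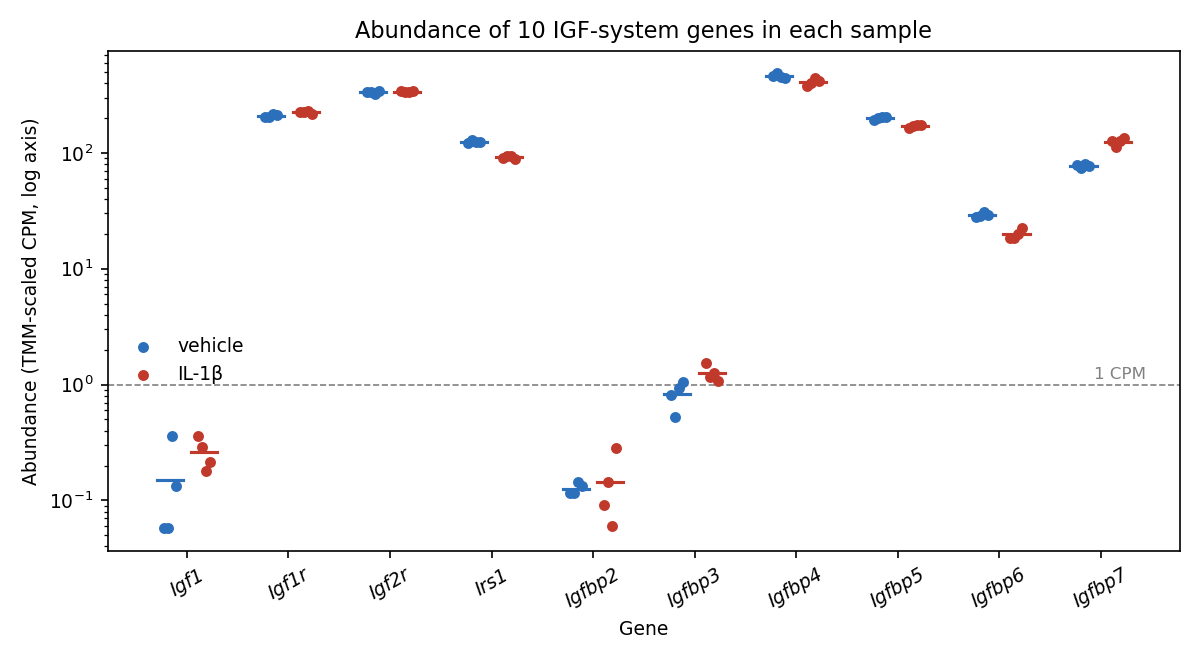
Abundance of the 10 genes in each of the 4 vehicle (blue) and 4 IL-1β (red) samples, in TMM-scaled CPM on a log axis, with bars at the group means and a dashed line at 1 CPM. *Igf1* and *Igfbp2* lie at no more than 0.362 CPM in every sample, *Igfbp3* lies near 1 CPM, and the other 7 genes lie between 18.4 and 485 CPM.

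Transcripts of the ligand *Igf1* (chromosome 10, 87858265 to 87937042 of GRCm38) were at the limit of what this depth shows. The 4 IL-1β samples held 4, 4, 3 and 3 reads, and the 4 vehicle samples held 1, 1, 5 and 2 reads. The groups overlapped, with vehicle replicate 3 holding the most reads, and no fold is given since nearly all samples were within 1 read of the limit of 3 counts or under it. Without the filter on low counts, edgeR's adjusted p-value for *Igf1* was 0.568. The other ligand, *Igf2*, which was not among the 10 genes, was read in every sample at 37.6 to 47.3 CPM under IL-1β and 139.9 to 149.8 CPM in vehicle. Its log2 fold change was -1.80 ± 0.0489 (SE, edgeR adjusted p = 2.53e-22), the largest fall among the pathway genes tested. Exons of annotated genes on either strand share up to 64.5% of the *Igf2* exon bases, with overlaps summed over genes. These genes are *Gm49394* on the same strand, listed with 0 reads in all samples, and the antisense gene *Igf2os*. *Igf2os* was also lower (log2 fold change -0.77, edgeR adjusted p = 0.00123), and whether reads were counted by strand is not stated.

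*Igf1r* (chromosome 7, 67952827 to 68233668), which encodes the type 1 receptor, had 224.5, 226.3, 228.0 and 215.0 CPM in the IL-1β samples and 202.6, 204.0, 216.6 and 210.7 CPM in the vehicle samples. IL-1β replicate 4 lay below vehicle replicate 3, so the groups overlapped. The log2 fold change was 0.10 ± 0.0322 (SE) with a 95% interval from 0.03 to 0.17 (edgeR, adjusted p = 0.013), while an exact permutation test of the 4 against 4 values, two-sided, gave p = 0.0571. The call rested on single samples, since the adjusted p-value was 0.0505 without vehicle replicate 1 and 0.0513 without vehicle replicate 2. The insulin receptor gene *Insr*, whose product can pair with the type 1 receptor in a hybrid, had a log2 fold change of 0.09 with an adjusted p-value of 0.0748 from edgeR. Per length of transcript, *Igf1r* was 2.11 ± 0.0727 times as abundant as *Insr* with IL-1β and 2.11 ± 0.156 times with vehicle (SD, n = 4), and these ratios overlapped between the groups.

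*Igf2r* (chromosome 17, 12682406 to 12769664), which encodes the type 2 receptor, had 339.3, 333.0, 335.8 and 339.9 CPM under IL-1β and 333.1, 335.8, 324.9 and 343.4 CPM in vehicle. The IL-1β samples lay within the range of the vehicle samples. The log2 fold change was 0.01 (edgeR adjusted p = 0.811), and its 95% interval, from -0.05 to 0.07, bounds the size of any change these samples allow. *Airn*, an antisense transcript known for silencing *Igf2r* on the paternal chromosome, had 88 to 117 reads per sample and shared no exon bases with *Igf2r*, and its log2 fold change was 0.02 (edgeR adjusted p = 0.904).

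*Irs1* (chromosome 1, 82233101 to 82291416), the adaptor that links the activated receptor to PI3-kinase, had 90.4, 93.3, 93.7 and 88.2 CPM under IL-1β. The vehicle samples had 122.6, 128.3, 123.1 and 125.4 CPM. Every IL-1β sample lay below every vehicle sample, with a wide gap between the groups compared with the spread within them. The level fell to 0.733 times that of vehicle, a log2 fold change of -0.45 ± 0.0338 (SE, edgeR adjusted p = 5.44e-12), and leaving out single samples moved this only between -0.46 and -0.43. Its relative *Irs2*, which serves the same receptors, went the other way, with 47.6 ± 0.959 CPM under IL-1β and 43.0 ± 1.33 CPM in vehicle (SD, n = 4) and a log2 fold change of 0.14 (edgeR adjusted p = 0.00932). Per length, *Irs1* was 1.90 to 2.06 times as abundant as *Irs2* in the vehicle samples and 1.26 to 1.395 times in the IL-1β samples. The antisense gene *Gm9747* shares 30.9% of the *Irs1* exon bases and was listed with 0 reads in all 8 samples. If reads in shared bases were left unassigned, the level of *Irs1* per length would be understated, in both groups.

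**Figure D2:**
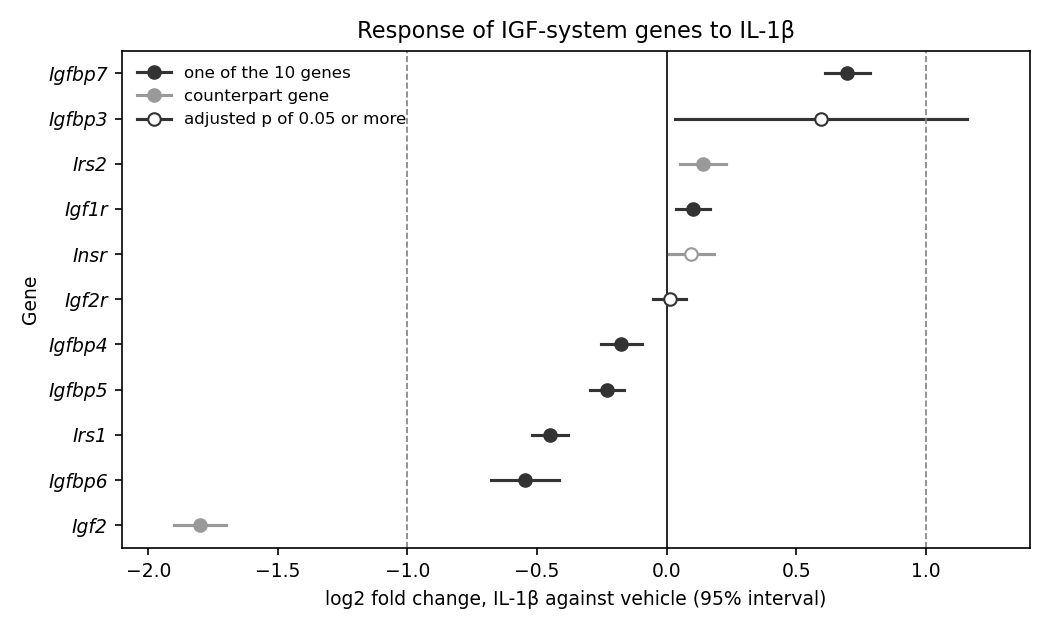
Log2 fold change of IL-1β against vehicle for the 8 tested genes (black) and for *Igf2*, *Insr* and *Irs2* (grey), with bars for the 95% interval and open points for an adjusted p-value of 0.05 or more. *Igfbp7* at 0.70 lies farthest to the right, *Igfbp6* at -0.55 lies farthest to the left among the 8 genes, and all 8 lie within the dashed lines at a log2 fold change of -1 and 1, unlike *Igf2* at -1.80.

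Of the binding proteins, *Igfbp7* was the only one that was higher at an adjusted p-value under 0.05. It encodes a matrix protein with low affinity for IGFs, which lacks the thyroglobulin-type domain at the C-terminus of the other family members. *Igfbp7* (chromosome 5, 77349240 to 77408041) had 126.8, 113.0, 127.1 and 133.3 CPM under IL-1β and 78.0, 74.1, 80.6 and 76.4 CPM in vehicle. The lowest IL-1β sample, replicate 2, was well above the highest vehicle sample. The log2 fold change was 0.70 ± 0.0423 (SE) with a 95% interval from 0.61 to 0.78 (edgeR, adjusted p = 4.97e-14), and it lay between 0.67 and 0.74 with single samples left out. Exons of *Polr2b* on the opposite strand share 7.03% of the *Igfbp7* exon bases, and *Polr2b* itself had a log2 fold change of 0.01 (edgeR adjusted p = 0.898).

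*Igfbp6* (chromosome 15, 102144362 to 102149511), which prefers IGF-II over IGF-I, had the largest fall of the 10 genes. Its levels were 18.4, 18.6, 19.8 and 22.3 CPM under IL-1β and 28.1, 28.4, 30.8 and 28.9 CPM in vehicle. All IL-1β samples were below all vehicle samples, IL-1β replicate 4 being the nearest to them. The log2 fold change was -0.55 ± 0.0632 (SE) with a 95% interval from -0.68 to -0.42 (edgeR, adjusted p = 3.45e-08), and it was -0.60 without IL-1β replicate 4.

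*Igfbp5* (chromosome 1, 72857932 to 72874884), which binds to the extracellular matrix as well as to IGFs, had 165.3, 170.2, 175.5 and 173.5 CPM under IL-1β. With vehicle it had 192.6, 201.6, 203.6 and 205.9 CPM. The groups did not overlap, and the log2 fold change was -0.23 ± 0.0315 (SE, edgeR adjusted p = 6.89e-07). *Igfbp4* (chromosome 11, 99041244 to 99054392), known mainly as an inhibitor of IGF action, had 380.6, 399.0, 442.4 and 414.1 CPM under IL-1β and 462.2, 485.0, 454.6 and 446.6 CPM in vehicle. The groups were close to each other, with IL-1β replicate 3 just under vehicle replicate 4. Its log2 fold change was -0.18 ± 0.0381 (SE, edgeR adjusted p = 0.000429), between -0.21 and -0.14 with single samples left out.

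The promoter bases of *Igfbp7* and *Igfbp4* are shown because these were the most abundant binding proteins per length (TPM, compared further on) and moved in opposite directions. Each line gives the 120 bases before the RefSeq start site on GRCm38.p6, 5′ to 3′ on the strand of the gene, at chr5:77408046-77408165 (minus strand) for *Igfbp7* and chr11:99041124-99041243 (plus strand) for *Igfbp4*. Capitals mark the GC box GGGCGG on either strand and the TATA box TATAAA.
Igfbp7: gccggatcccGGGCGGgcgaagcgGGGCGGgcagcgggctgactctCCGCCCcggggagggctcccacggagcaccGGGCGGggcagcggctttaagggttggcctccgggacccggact
Igfbp4: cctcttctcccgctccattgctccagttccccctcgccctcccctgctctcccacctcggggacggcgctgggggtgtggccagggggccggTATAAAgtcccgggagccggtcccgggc
Both strands of the 250 bases before each start site were searched. GGGCGG occurred 4 times for *Igfbp7* and not for *Igfbp4*, and 32.7% of the 32851 RefSeq promoter windows held it. TATAAA occurred once for *Igfbp4* and not for *Igfbp7*, and 12.4% of the windows held it. GGGCGG was also found for *Igf1r* (2 matches), *Irs1* (2), *Igf2r* (3) and a window of *Igfbp2* (3), and TATAAA also for *Igfbp6* (1). The motif TGACTCA, searched as well, had 1 match, in another window of *Igfbp2*, and 4.46% of all windows held it. The consensus of NF-κB, a factor activated by IL-1β, was found in the windows of *Irs1* (1 match) and *Igfbp5* (2 matches that overlap each other), in none of the other 8 genes' windows, and in 7.25% of all windows. The last 30 bases of the window were found in a GENCODE transcript for 6 genes, *Igfbp7*, *Igfbp4* and *Igfbp5* among them, but not for *Igf1r*, *Igf2r*, *Irs1* and *Igfbp6*, for which the RefSeq window may lie apart from the start site in GENCODE. The motif matches are descriptions of sequence and not evidence of binding.

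*Igfbp3* (chromosome 11, 7206086 to 7213923), the main carrier of IGFs in serum, was scarce in these cells. It had 1.54, 1.16, 1.25 and 1.07 CPM under IL-1β and 0.81, 0.52, 0.93 and 1.05 CPM in vehicle, from 9 to 21 reads per sample. The groups did not overlap, but IL-1β replicate 4 and vehicle replicate 4 were nearly equal. The log2 fold change was 0.60 with a 95% interval from 0.03 to 1.16, and the adjusted p-value of 0.087 from edgeR missed the threshold. Leaving out vehicle replicate 2 lowered the log2 fold change to 0.42. *Igfbp2* (chromosome 1, 72824503 to 72852474), which lies beside *Igfbp5*, had 1, 2, 1 and 4 reads with IL-1β and 2 reads in each vehicle sample. No difference could be shown at this depth, and no fold is given for *Igfbp2*.

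Non-overlapping groups were seen for 6 of the 8 tested genes (*Irs1*, *Igfbp3*, *Igfbp4*, *Igfbp5*, *Igfbp6* and *Igfbp7*) and for 36.8% of all genes tested. For each of these 6 genes, an exact permutation test of the 4 against 4 values, two-sided, gave p = 0.0286, the smallest that 4 samples against 4 allow. Groups that do not overlap always give this value, so it adds nothing to the lack of overlap. *Igfbp3* had met the filter on low counts mainly through its IL-1β samples.

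Levels of different genes were compared as TPM, in which counts are divided by the gene length listed beside them and scaled to a common total. With vehicle the order was *Igfbp4* (292 ± 16.0 TPM, SD, n = 4), *Igfbp7* (178 ± 9.0 TPM), *Igf2r* (100.2 ± 1.84 TPM), *Igfbp5* (93.3 ± 1.98 TPM), *Igfbp6* (72.9 ± 3.69 TPM), *Irs1* (38.1 ± 1.11 TPM) and *Igf1r* (34.6 ± 1.20 TPM). Neighbors in this order did not overlap between samples. *Igfbp3*, *Igfbp2* and *Igf1* followed with means of 0.737, 0.191 and 0.0426 TPM. With IL-1β, *Igfbp7* (279 ± 17.6 TPM) was on a par with *Igfbp4* (250 ± 9.64 TPM), their sample ranges overlapping, and *Igf1r* (35.95 ± 1.59 TPM) was above *Irs1* (27.0 ± 1.09 TPM). The remaining places in the order were as with vehicle, and *Igfbp2* and *Igf1* overlapped. The place of *Irs1* beside *Igf1r* depends on how reads in the 30.9% of its exon bases shared with *Gm9747* were counted, which is not stated.

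The make-up of the IGFBP transcript pool shifted while its size did not separate the groups. The summed level of the 6 binding proteins was 660, 626, 665 and 669 TPM in the IL-1β samples and 647, 648, 653 and 603 TPM in the vehicle samples. *Igfbp7* made up 44.5, 40.8, 41.6 and 43.5% of that sum with IL-1β and 28.4, 26.6, 28.8 and 28.1% with vehicle. Its share was higher in every IL-1β sample than in any vehicle sample. The mean share of *Igfbp4* was 38.1% with IL-1β and 45.8% with vehicle, that of *Igfbp5* was 11.7% and 14.6%, and that of *Igfbp6* was 7.32% and 11.4%. These shares are sums over chosen genes and are given without a test. On CPM, without length scaling, *Igfbp7* made up 17.2% with IL-1β and 10.0% with vehicle.

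**Figure D3:**
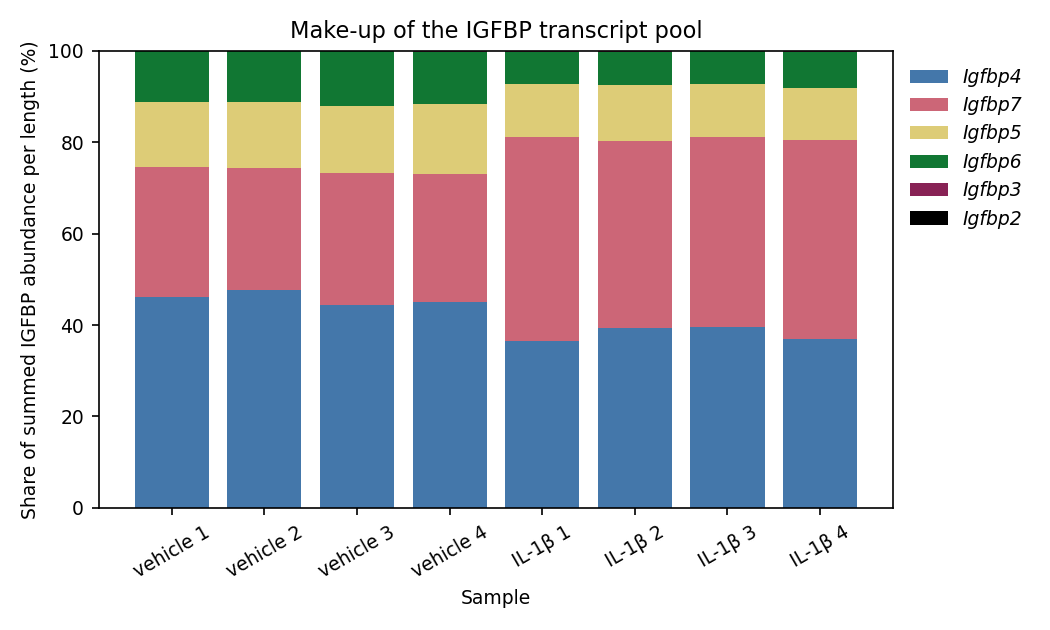
Share of each binding protein gene in the summed IGFBP abundance per length (%), in each of the 4 vehicle and 4 IL-1β samples. The *Igfbp7* segment spans 26.6 to 28.8% in the vehicle samples and 40.8 to 44.5% in the IL-1β samples, and *Igfbp2* and *Igfbp3* are too small to be seen.

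Of the 6 IGFBP proteases examined, *Pappa*, *Pappa2*, *Htra1* and *Htra3* were lower after IL-1β and *Adam12* was higher. Of 8 genes listed as IGFBP proteases or their inhibitors, 6 were tested, 5 were lower and 1 was higher. Among all genes tested, 19.8% were lower and 20.4% were higher. The median log2 fold change was -0.52 over the 6 genes and -0.0012 over all genes tested. *Pappa*, which encodes a metalloproteinase that cuts IGFBP4 and IGFBP5, had 132 ± 2.93 CPM under IL-1β and 237 ± 8.86 CPM in vehicle (log2 fold change -0.84 ± 0.0327, SE, edgeR adjusted p = 1.28e-18). *Htra3* had a log2 fold change of -0.87, *Pappa2* one of -0.70, and *Htra1*, a serine protease that can cut IGFBP5, one of -0.34. *Stc2*, an inhibitor of PAPP-A, fell slightly, from 328.5 ± 5.03 to 308 ± 6.11 CPM (log2 fold change -0.09, edgeR adjusted p = 0.0165). That call was lost without IL-1β replicate 4 (adjusted p = 0.0777 from edgeR), which left 4 lower genes in the list. *Adam12* encodes a disintegrin metalloproteinase that can cut IGFBP3 and IGFBP5. It had 17.4, 15.6, 17.5 and 16.4 CPM under IL-1β and 4.92, 5.45, 6.87 and 7.52 CPM in vehicle. The groups were far apart, and the log2 fold change was 1.45 ± 0.108 (SE, edgeR adjusted p = 4.58e-12). *Adam28* was listed at 0 in all samples, and *Stc1* was below the filter.

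Among 28 genes of insulin and IGF signalling downstream of the receptors, 27 were tested, of which 12 were higher and 8 were lower, with a median log2 fold change of 0.10. That is 20 of 27 genes called, beside 40.2% of all genes tested. *Grb14*, an adaptor that inhibits the insulin receptor kinase, was the only one of these with a log2 fold change beyond 1. It had 25.8, 27.4, 27.2 and 27.2 CPM under IL-1β and 8.16, 9.10, 7.94 and 7.38 CPM in vehicle (log2 fold change 1.72 ± 0.0764, SE, edgeR adjusted p = 3.22e-17). The related *Grb10* fell slightly, from 862 ± 13 to 772 ± 13.8 CPM (log2 fold change -0.16, edgeR adjusted p = 3.42e-05). *Pik3r1*, the regulatory subunit of PI3-kinase that binds phosphorylated IRS proteins, rose from 28.0 ± 2.02 to 46.2 ± 1.08 CPM (log2 fold change 0.73, edgeR adjusted p = 1.41e-12). Its catalytic partner *Pik3cb* was lower (log2 fold change -0.34) and *Pik3ca* did not pass the test (log2 fold change 0.0050). The kinase genes *Akt1* and *Akt2* were lower, with log2 fold changes of -0.11 and -0.32. The adaptor *Shc1*, which leads to the MAP kinases, was higher at 0.29, and *Gab1* was lower at -0.37.

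In the growth hormone arm, which drives *Igf1* expression in liver, 1 of 5 genes was higher (*Jak2*, log2 fold change 0.16) and 3 were lower, beside 20.4% higher and 19.8% lower among all genes tested. *Ghr*, the growth hormone receptor gene, had 23.9 ± 1.78 CPM under IL-1β and 28.5 ± 1.28 CPM in vehicle (log2 fold change -0.26, edgeR adjusted p = 0.000995). *Stat5a* and *Stat5b* had log2 fold changes of -0.13 and -0.12, with adjusted p-values of 0.0359 and 0.0406 from edgeR, and neither passed the test in DESeq2. *Socs2* did not pass the test. Of the 8 other ligands, receptors and carriers listed, *Igf2* and *Insr* were tested, while *Igfbp1*, *Igfals* and *Insrr* were below the filter and *Ins1*, *Ins2* and *Igfbpl1* were listed at 0 in all samples.

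**Figure D4:**
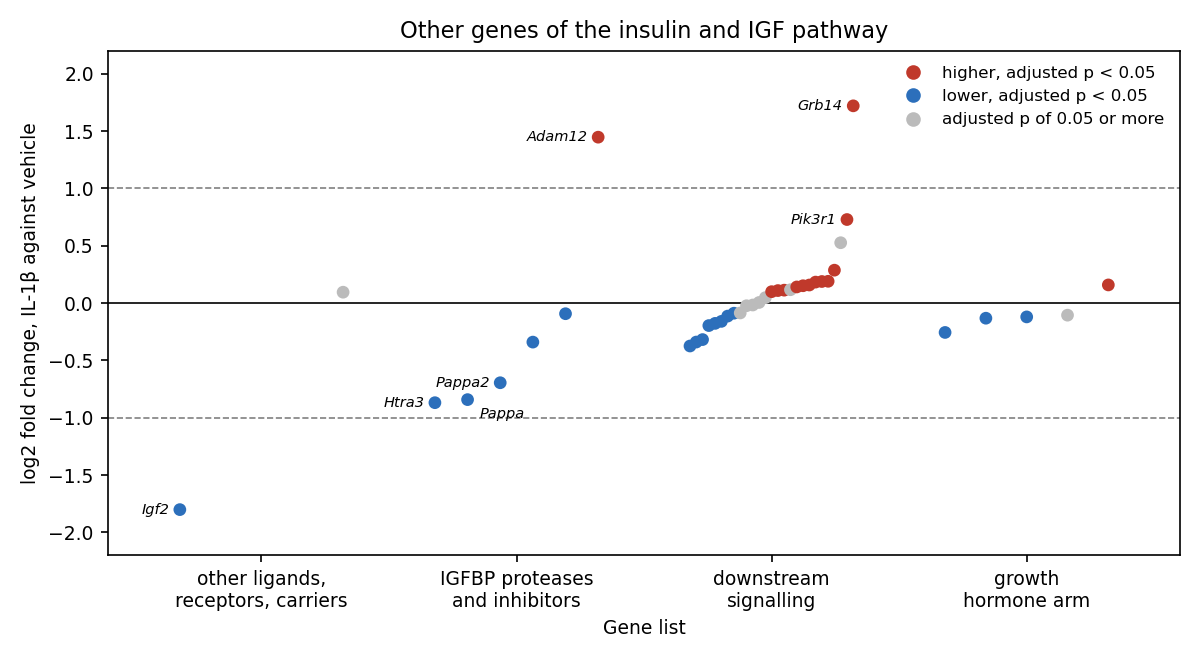
Log2 fold change of IL-1β against vehicle for the tested genes of 4 lists (ligands, receptors and carriers outside the 10 genes, IGFBP proteases and inhibitors, downstream signalling, growth hormone arm), ordered within each list, in red or blue where the adjusted p-value was under 0.05 (higher or lower) and in grey otherwise. *Igf2* at -1.80, *Adam12* at 1.45 and *Grb14* at 1.72 lie outside the dashed lines at -1 and 1.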

How the data were processed

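RNA-Seq of 4 IL-1β and 4 vehicle samples was used. Per the methods and the submitters' processing notes, the authors used cutadapt for trimming, STAR (2.4.2a in the notes, another version in the methods) for alignment to mm10 with GENCODE vM20, and featureCounts for counting. The deposited values are whole-number counts per gene symbol and, as another column (unit: other), gene lengths in bases. Whether the counts precede or follow RUVseq batch correction is not stated.

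Counts were normalized by TMM and tested with edgeR 4.0.16 (limma 3.58.1, R 4.3.3), treatment as the only term, over 14404 genes whose CPM exceeded 1 in 4 or more samples, with Benjamini-Hochberg adjustment over all of them. Standard errors and 95% intervals refer to the log2 fold change, IL-1β minus vehicle. Exact permutation tests used log2(CPM + 1). TPM used the deposited counts and lengths. The lengths of the 10 genes equaled their exon lengths in GENCODE vM21 (GRCm38), the source of positions and overlaps. Promoter windows from RefSeq (GRCm38.p6) matched all 10 genes by symbol, and for 6 of them the last 30 bases of the window were found in a GENCODE transcript. The code was tested on simulated data. Tables used pandas 2.3.3 and scipy 1.17.1 in Python 3.11.15, and figures matplotlib 3.10.9.

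Named genes were the 10 genes, *Igf2*, *Insr* and *Irs2*, and in each pathway list the genes with a log2 fold change beyond 1 or, failing that, the 3 with the largest change at an adjusted p-value under 0.05. Others were named after their values were seen. The 10 genes and the lists were chosen with earlier results of these data known. The alternatives were DESeq2 1.42.0, other scalings and filters, the replicate number as a block, 1 RUVs factor (written out in R), glmTreat, no length scaling, a pseudocount of 0.25, and each sample left out in turn. Depth was 10992355 to 17456063 counts per sample, and 3 counts were taken as the smallest level shown.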

Additional observations from a re-analysis of the deposited data

How the results depend on the processing

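Of the 119 log2 fold changes of the 8 tested genes under the alternatives, 116 kept their direction and their side of the threshold. Of the 599 log2 fold changes of the tested genes in the pathway lists, 545 did so, 36 lost their call, 9 gained a call and 9 changed direction. Leaving out vehicle replicate 1 or 2 took the call of *Igf1r* away (log2 fold change 0.09 each), so that the number of the 10 genes called higher was 1 to 2 over the samples left out in turn. *Igf2r* ranged from -0.0054 (without vehicle replicate 3) to 0.023 and was never called. With the replicate number as a block, the 10 genes gave the same counts, 2 higher and 4 lower, and *Insr* was called, so that 1 gene of its list was higher in place of 0. Same-numbered samples of the groups had correlations of deviations from -0.0699 to 0.0415, and the labels tie the numbers to nothing shared. With single samples left out, that list gave 0 to 1 higher. The growth hormone arm gave 1 to 3 lower genes with samples left out and 1 with DESeq2. Genes past a log2 fold change of 1 numbered 412 higher and 339 lower, against 635 and 571 without the filter on low counts, 262 and 175 with glmTreat, and 266 higher with a CPM above 1 in all samples. *Pik3ca* (-0.0047 to 0.019 with samples left out and -0.00043 without the filter), *Pik3r3* (-0.13 to 0.074) and *Tsc2* (-0.054 to 0.013) changed sign and were not called. The share of *Igfbp7* was 17.2% and 10.0% on CPM, in place of 42.6% and 28.0% per length. No log2 fold change of the 8 tested genes was beyond 1 under any alternative. The depth does not allow a statement on *Igf1* or *Igfbp2*. None of the 22 groups of 4 values examined held a sample beyond Dixon's critical value.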
